A study of Mus musculus with 22 samples.

Results

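The guanylate-binding protein genes are the genes of the distal colon count table that carry one of the symbols Gbp2 to Gbp10. The 9 symbols matched 10 of 46078 gene records, because Gbp6 is the symbol of 2 records with different Ensembl identifiers. RNA sequencing of poly(A) RNA was carried out on the distal colon of 22 mice, and the study compared mice with and without spontaneous colitis to find the pathways altered in inflamed tissue. C57BL/6 mice aged 14 weeks served as controls (n = 8, 4 males and 4 females). Winnie mice aged 14 weeks (n = 7, 3 males and 4 females) carry a missense mutation of Muc2, the gene of the main mucin of goblet cells, and were labelled as inflamed. Winnie-Prolapse mice aged 18 weeks (n = 7, 4 males and 3 females) were Winnie mice labelled as severely inflamed, so that age and prolapse cannot be told apart in any comparison with this group. The mutation is carried in the germline and is present in every cell of both Winnie groups. Each library carries a label code of its own and was read as 1 mouse, and no library or sequencing batch is given.

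Guanylate-binding proteins are large GTPases of the dynamin superfamily. Their genes are among the most strongly induced by interferon gamma, which acts through its receptor and the Jak kinases, and through the transcription factor Irf1. The proteins assemble on the membranes of vacuoles that hold microbes and on cytosolic bacteria, where they promote lysis of the microbe and activation of inflammasomes, and Gbp2 and Gbp5 are anchored to membranes by a prenyl group at their C terminus.

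The members lie in 2 clusters of the mouse genome (GRCm38, GENCODE annotation). On the forward strand of chromosome 3 stand Gbp5 (chr3:142493978-142522344), Gbp7 (chr3:142530342-142550149), Gbp3 (chr3:142560026-142573209) and Gbp2 (chr3:142620602-142638008). On the reverse strand of chromosome 5 stand Gbp8 (chr5:105014150-105139540), Gbp9 (chr5:105077630-105139539), Gbp4 (chr5:105115767-105139586), Gbp10 (chr5:105215699-105239533) and Gbp6 (chr5:105270702-105293698). The other record named Gbp6 in the table (ENSMUSG00000079362, chr5:105214907-105293695) is a transcript that reads through Gbp6 and Gbp10, and the annotation calls it Gm43302. It held 1 count in all 22 libraries, so Gbp6 below is the record ENSMUSG00000104713.

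**Figure D1:**
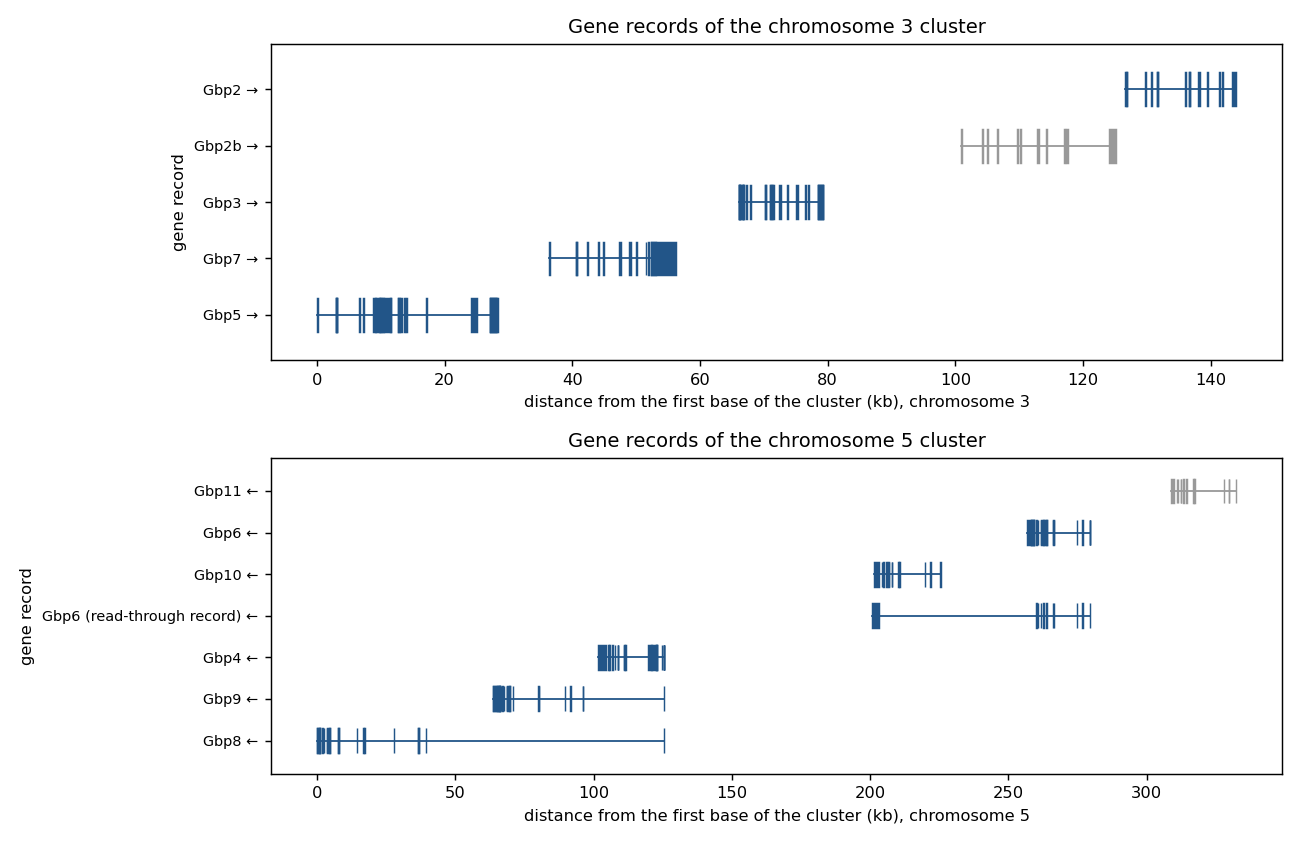
Gene records of the chromosome 3 cluster (upper panel) and the chromosome 5 cluster (lower panel), drawn to scale with the distance in kb from the first base of each cluster on the horizontal axis and 1 record per line. Blue marks members and grey marks the family genes Gbp2b and Gbp11, boxes are annotated exons drawn with a fine outline, and arrows give the strand; Gbp6, Gbp10 and the read-through record share exons, and Gbp4, Gbp8 and Gbp9 share their start.

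Overlap and likeness between members limit what a count per gene can say. Of the exonic bases of Gbp2, Gbp3 and Gbp5, 100% belonged to that gene alone on its strand, against 71.0% for Gbp6 and 53.7% for Gbp10. Of the windows of 100 bases in the transcripts of Gbp10, 73.5% occurred unchanged in transcripts of another gene, mostly Gbp6 and the read-through record, and for Gbp6 the share was 64.5%. It was 0% for Gbp2, 0.142% for Gbp5, 0.694% for Gbp3, 1.64% for Gbp4, 1.65% for Gbp9, 4.39% for Gbp8 and 10.01% for Gbp7. The counts of Gbp6 and Gbp10 are therefore uncertain, since the handling of reads shared between genes was not given in the sources used here.

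The 4 members on chromosome 3 have entries in the RefSeq table of transcription starts (GRCm38.p6), and their upstream sequences are shown because all 4 genes rose in Winnie-Prolapse mice, as given below. Each line gives the 250 bases before the first listed start on the forward strand, 5′ to 3′. Capitals mark the core of the interferon-stimulated response element (ISRE), searched as GAAANNGAAA on either strand, which reads TTTCNNTTTC on the strand shown. The windows are chr3:142620413-142620662 for Gbp2, chr3:142559794-142560043 for Gbp3, chr3:142496684-142496933 for Gbp5 and chr3:142530086-142530335 for Gbp7.
Gbp2: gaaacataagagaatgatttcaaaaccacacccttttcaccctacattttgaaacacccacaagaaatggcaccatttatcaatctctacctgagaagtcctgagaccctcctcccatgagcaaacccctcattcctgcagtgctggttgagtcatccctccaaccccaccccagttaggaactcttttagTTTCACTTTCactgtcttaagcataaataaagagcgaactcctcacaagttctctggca
Gbp3: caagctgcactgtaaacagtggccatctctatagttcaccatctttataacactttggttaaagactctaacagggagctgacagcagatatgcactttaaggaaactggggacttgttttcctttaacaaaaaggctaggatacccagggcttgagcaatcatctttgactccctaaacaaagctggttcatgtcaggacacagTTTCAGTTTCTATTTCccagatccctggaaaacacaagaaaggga
Gbp5: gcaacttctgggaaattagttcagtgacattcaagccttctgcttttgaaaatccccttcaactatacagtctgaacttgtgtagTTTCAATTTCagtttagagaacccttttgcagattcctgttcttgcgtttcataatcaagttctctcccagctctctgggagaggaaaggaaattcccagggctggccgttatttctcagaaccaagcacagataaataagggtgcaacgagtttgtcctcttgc
Gbp7: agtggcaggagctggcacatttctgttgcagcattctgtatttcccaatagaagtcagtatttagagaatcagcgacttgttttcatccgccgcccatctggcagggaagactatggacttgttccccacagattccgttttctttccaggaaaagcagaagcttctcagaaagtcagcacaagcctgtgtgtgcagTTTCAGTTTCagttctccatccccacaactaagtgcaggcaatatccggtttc

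The core stood 59 bases before the start of Gbp2, 53 before that of Gbp7 and 165 before that of Gbp5. Gbp3 held 2 overlapping matches, 45 and 39 bases before its first start, and none before its other listed start. The gamma-activated site, an element of promoters that respond to interferon gamma, was searched as TTCNNNGAA, which reads the same on both strands. It was found 106 and 87 bases before Gbp7 and 245 and 52 bases before Gbp5, and no match was found in the windows of Gbp2 and Gbp3. Over 32851 windows of all genes, 3.44% held the ISRE core and 8.30% held the gamma-activated site. These windows are longer than those shown, since they also hold bases after the start. The 4 members had the same number of matches in the longer windows. A match describes letters in a window and was not tested as a binding site.

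Libraries held 24.8 to 36.3 M counts, and levels are given as CPM, the counts of a gene scaled by the library total. A count of 0 leaves room for up to 3 counts, which were worth 0.0825 to 0.121 CPM. The distal colon label was met by colonocyte markers, which were counted in every group. Their summed level was 7977 to 12066 CPM in C57BL/6, 5037 to 12028 CPM in Winnie and 3129 to 9096 CPM in Winnie-Prolapse libraries. Winnie-Prolapse libraries also held 105 to 2300 CPM of squamous epithelium markers, against 3.70 to 47.4 CPM in C57BL/6, where Ivl was at 0 counts in each library. Milk protein genes made up 18.0% of the counts of Winnie-Prolapse replicate 6 and at most 0.00542% of any other library. Winnie replicate 5 had the lowest level of each member in its group. The comparisons of the members in Winnie mice of both sexes are given with and without it. The fits of females alone and the counts of pathway and marker lists are given only with it included.

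In the C57BL/6 colon, Gbp2 had the highest level of the family per length of transcript, at 13.3 ± 2.83 CPM per kb of exon (SD, n = 8). Gbp7 (3.03 ± 0.367 CPM per kb) and Gbp3 (2.11 ± 0.316 CPM per kb) came next. Gbp9 (0.851 ± 0.381), Gbp8 (0.658 ± 0.122), Gbp4 (0.594 ± 0.234) and Gbp5 (0.494 ± 0.163 CPM per kb) formed a group in which each neighbour in the order lay within 1 SD of the next. Gbp6 stood lower at 0.149 ± 0.0456 CPM per kb. Gbp10 was close to absent at this depth, with 3 counts in 8 libraries and 0 counts in 5 of them.

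In Winnie and Winnie-Prolapse mice the order of the family per kb was partly different. Gbp2 stayed first at 185 ± 152 CPM per kb in Winnie and 282 ± 145 CPM per kb in Winnie-Prolapse (SD, n = 7 each). Gbp3 came next at 13.5 ± 9.17 and 22.7 ± 10.99 CPM per kb, and Gbp7 followed at 11.9 ± 6.31 and 18.98 ± 7.08 CPM per kb, so these neighbours lay within their spread in both groups. Gbp9 held place 4 of the records in C57BL/6 and place 7 in both Winnie groups, where it stood at 2.64 ± 1.65 and 4.77 ± 2.44 CPM per kb. Gbp6 (1.32 ± 0.995 and 2.62 ± 1.22 CPM per kb) and Gbp10 (0.0951 ± 0.0933 and 0.286 ± 0.129 CPM per kb) remained last. Of the summed CPM per kb of the family, Gbp2 made up 62.4 ± 4.61% of the C57BL/6 total, 77.8 ± 8.39% of the Winnie total and 77.6 ± 2.12% of the Winnie-Prolapse total, and it made up 62.5% in Winnie replicate 5. The share of Gbp7 was 14.4 ± 1.38%, 7.29 ± 4.08% and 5.57 ± 1.15% in the same order.

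**Figure D2:**
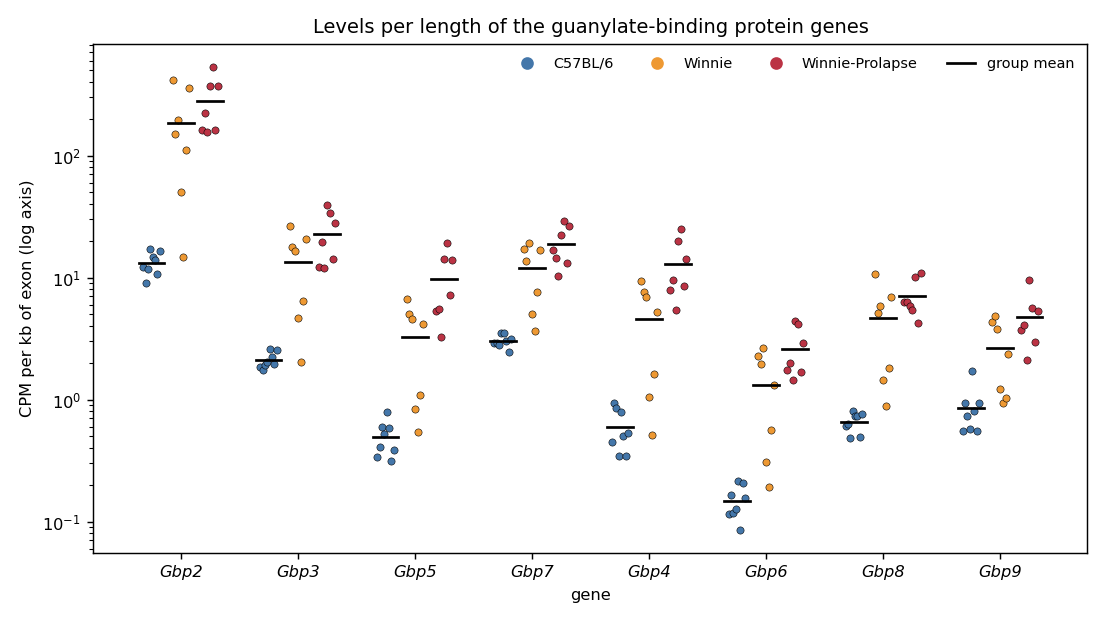
Level of each member per length, in CPM per kb of annotated exon on a log axis, with 1 point per library and a line at the group mean. Gbp2 is the highest member in each group, with means of 13.3, 185 and 282 CPM per kb; Gbp10 is left out because it had 0 counts in 5 C57BL/6 libraries.

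Each member that could be tested was upregulated in Winnie-Prolapse when compared to C57BL/6 mice. Gbp2, Gbp4, Gbp5 and Gbp6 rose 18.3- to 22.6-fold, Gbp3 and Gbp8 by 11.1- and 11.3-fold, and Gbp7 and Gbp9 by 6.60- and 5.81-fold. A gene was called at an adjusted p under 0.001 and a change of at least 1.5-fold, the limits of the study. By edgeR's quasi-likelihood test 8 of 8 tested members were called higher, and of all 17397 genes tested 9.84% were called higher. The other 2 of the 10 records, Gbp10 and the read-through record, did not pass the filter on low counts. Every Winnie-Prolapse library stood above every C57BL/6 library for these 8 members, a pattern that 6.5% of all genes tested had. Without Winnie-Prolapse replicate 6, the library with milk protein genes, 8 of 8 were also called (8.78% of all genes). The median log2 fold change was 3.85 over the 8 members and -0.01 over all genes tested. In bulk tissue a change in the number of cells of a type and a change in RNA per cell cannot be told apart.

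Gbp2, which coats microbe-containing vacuoles and promotes inflammasome activation, had 22.5, 33.0 and 42.9 CPM (lowest, median and highest library) in C57BL/6 mice. In Winnie-Prolapse mice the corresponding levels were 390, 560 and 1335 CPM, so the lowest stood 9.08 times above the highest C57BL/6 library. The log2 fold change was 4.47 ± 0.27 (SE, edgeR adjusted p = 1.29e-08). Gbp5, known for promoting assembly of the Nlrp3 inflammasome, had 2.10, 3.07 and 5.28 CPM in C57BL/6 and 21.6, 47.9 and 127 CPM in Winnie-Prolapse mice. The groups did not overlap, and Gbp5 rose by 4.38 ± 0.36 on the log2 scale (edgeR adjusted p = 3.13e-07). These prenylated members were at their highest in the same library, Winnie-Prolapse replicate 5, and at their lowest in Winnie-Prolapse replicate 3.

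The other chromosome 3 members changed less. Gbp3, which acts with Gbp2 against cytosolic bacteria, had 5.74, 6.53 and 8.49 CPM in C57BL/6 and 39.5, 63.5 and 128 CPM in Winnie-Prolapse libraries (log2 fold change 3.48 ± 0.24, edgeR adjusted p = 3.95e-08). Gbp7, linked to NADPH oxidase assembly and the control of intracellular parasites, had 13.7, 16.5 and 19.9 CPM against 58.2, 95.2 and 163 CPM (2.72 ± 0.18, edgeR adjusted p = 3.28e-08). Gbp7 had the higher level of the pair per kb in C57BL/6 mice and the smaller change. Neither gene overlapped between the groups.

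On chromosome 5, Gbp4 had 2.57, 3.87 and 7.08 CPM in C57BL/6 and 40.8, 71.7 and 187 CPM in Winnie-Prolapse libraries, with a log2 fold change of 4.50 ± 0.34 (edgeR adjusted p = 1.29e-07). Gbp6 had 0.511, 0.843 and 1.27 CPM against 8.62, 11.9 and 26.1 CPM (4.19 ± 0.27, edgeR adjusted p = 2.78e-08). Both rose by an amount close to that of Gbp2. Gbp8 had 1.68, 2.35 and 2.78 CPM against 14.5, 21.8 and 37.5 CPM (3.50 ± 0.20, edgeR adjusted p = 7.51e-09), and it had the smallest SD relative to its mean of the 8 in Winnie-Prolapse mice. Gbp9 had 2.86, 4.01 and 8.83 CPM against 10.95, 21.1 and 49.3 CPM (2.54 ± 0.29, edgeR adjusted p = 6.01e-06). Its lowest Winnie-Prolapse library stood only 1.24 times above its highest C57BL/6 library, replicate 5. With males alone or females alone Gbp9 kept its direction and missed the limit, at 2.78 (edgeR adjusted p = 0.00174) and 2.35 (edgeR adjusted p = 0.0043) on the log2 scale.

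Gbp10 is described by its counts. Its C57BL/6 libraries held 0 or 1 count each, its Winnie libraries 0 to 34 and its Winnie-Prolapse libraries 7 to 49. Relative to the library totals, the summed rate was 28.4 times that of C57BL/6 in Winnie (95% exact counting interval 9.39 to 141) and 82.9 times in Winnie-Prolapse (28.0 to 405). The intervals cover counting error only, and the overlap of Gbp10 with Gbp6 given above bears on both ratios.

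**Figure D3:**
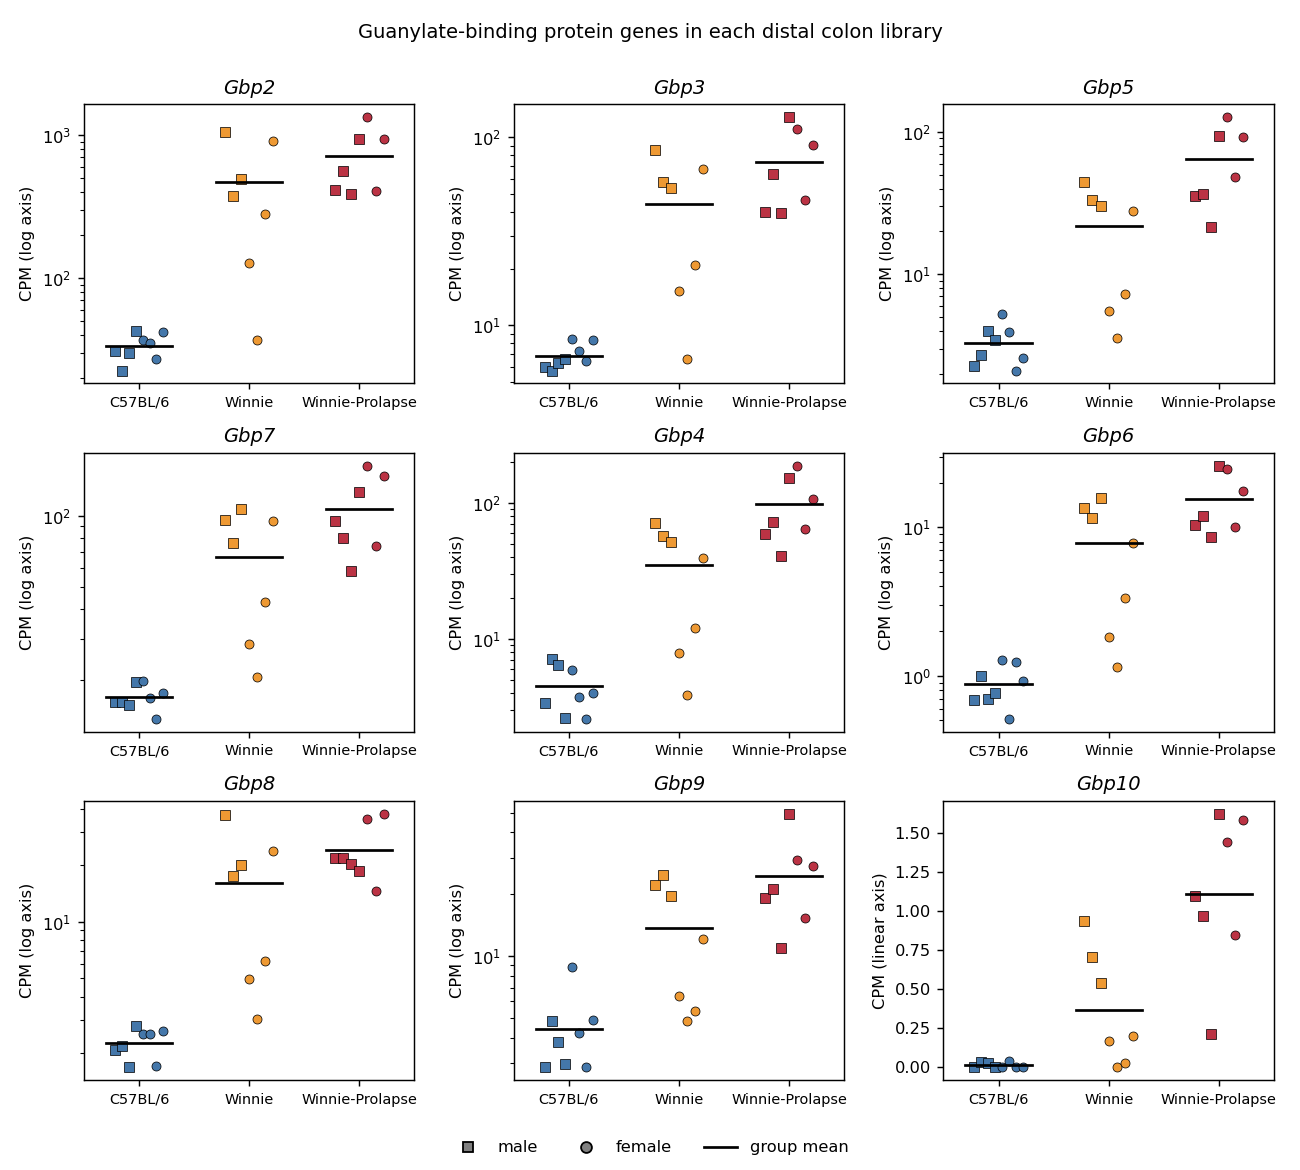
Level of each member in each library, in CPM on a log axis (Gbp10 on a linear axis), by group, with squares for males, circles for females and a line at the group mean. All 7 Winnie-Prolapse libraries lie above all 8 C57BL/6 libraries in every panel, while the Winnie libraries spread from the C57BL/6 range, as Gbp2 at 36.7 CPM, to the Winnie-Prolapse range, as Gbp2 at 1052 CPM.

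Winnie mice of the same age as the controls had a higher mean level of each of the 9 members with counts in C57BL/6, and the libraries differed widely. At the limits of the study 0 of 8 tested members were called by edgeR, and 0.0868% of all 17289 genes were called higher. Their adjusted p-values ran from 0.00102 to 0.0063, all above the limit of 0.001. At an adjusted p under 0.05 and 1.5-fold, 8 of 8 members were higher, against 7.42% of all genes, and 8 of 8 had an unadjusted p under 0.05, against 39.9% of all genes. DESeq2 called these 8 members (3.66% of all genes were called higher), and Gbp10 as well, which has 3 counts in the C57BL/6 group and could be tested only through its Winnie counts. Limma-voom called 0. Without Winnie replicate 5, edgeR called 7 of 8 members, all but Gbp9, and 2.5% of all genes. The median log2 fold change was 2.86 over the 8 members and -0.01 over all genes tested.

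Gbp2 had 36.7, 377 and 1052 CPM (lowest, median and highest library) in Winnie mice. The difference from C57BL/6 was 3.90 ± 0.52 on the log2 scale (edgeR adjusted p = 0.00102) and 4.11 without Winnie replicate 5. Gbp6 had 1.15, 7.83 and 15.8 CPM (3.21 ± 0.48, edgeR adjusted p = 0.00132), and Gbp4 had 3.84, 39.4 and 70.6 CPM (3.02 ± 0.52, edgeR adjusted p = 0.00236). For these 3 members, and for Gbp3 and Gbp5, 6 of 7 Winnie libraries stood above every C57BL/6 library, and Winnie replicate 5 did not.

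Gbp8 had 3.05, 17.6 and 36.9 CPM in Winnie mice (2.91 ± 0.44, edgeR adjusted p = 0.00132), and Gbp7 had 20.7, 76.7 and 107 CPM (2.05 ± 0.29, edgeR adjusted p = 0.00124). All 7 Winnie libraries lay above all C57BL/6 libraries for these 2 of 8 tested members, and 0.463% of all genes had that pattern. Gbp5 had 3.58, 27.7 and 44.4 CPM (2.80 ± 0.47, edgeR adjusted p = 0.00213), and Gbp3 had 6.60, 53.8 and 85.7 CPM (2.76 ± 0.41, edgeR adjusted p = 0.00132). Gbp9 had 4.82, 12.1 and 24.9 CPM (1.70 ± 0.37, edgeR adjusted p = 0.0063), and it overlapped most with the controls, since 4 of 7 Winnie libraries exceeded the highest C57BL/6 library. Gbp9 showed the smallest difference of the 8 tested members in both comparisons with C57BL/6. Without Winnie replicate 5 the log2 differences from C57BL/6 were 2.95 for Gbp3, 3.22 for Gbp4, 2.99 for Gbp5, 3.40 for Gbp6, 2.21 for Gbp7, 3.10 for Gbp8 and 1.84 for Gbp9. The edgeR adjusted p-values were then 1.73e-05 (Gbp2) to 0.00127 (Gbp9), so the differences were larger and Gbp9 stayed above the limit.

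**Figure D4:**
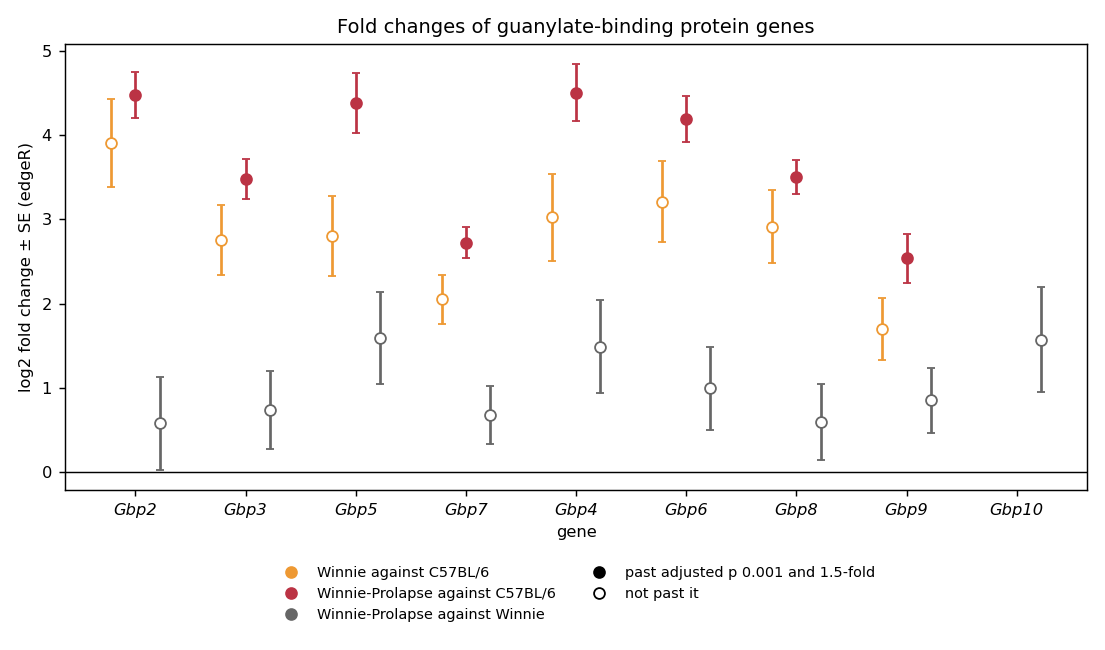
Log2 fold change of each tested member with its SE (edgeR) in the 3 group comparisons, with filled points for changes past an adjusted p of 0.001 and 1.5-fold. Points of Winnie-Prolapse against C57BL/6 are filled for 8 of 8 members, those of Winnie against C57BL/6 are open and lie between 1.70 and 3.90, and those of Winnie-Prolapse against Winnie lie between 0.58 and 1.59; Gbp10 was tested only in the last.

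The levels of the members varied together across Winnie libraries. Winnie replicate 5, a female, was the lowest of the 7 for 9 of 9 members with counts, and its levels were 0.862 to 1.35 times the C57BL/6 mean for the 8 tested members. Winnie replicate 1, a male, was the highest for 6 of 9 members. The females replicates 4 and 6 ranked 5 or 6 of 7 for each member, the males replicates 1 to 3 ranked between 1 and 4, and the female replicate 7 ranked between 2 and 4. In Winnie-Prolapse mice, replicate 3 was the lowest for 8 of 9 members, and replicates 4 and 5 were the highest for 4 members each. The summed level of all members ran from 80.5 to 1422 CPM in Winnie libraries, from 590 to 2014 CPM in Winnie-Prolapse libraries and from 57.6 to 89.3 CPM in C57BL/6 libraries.

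**Figure D5:**
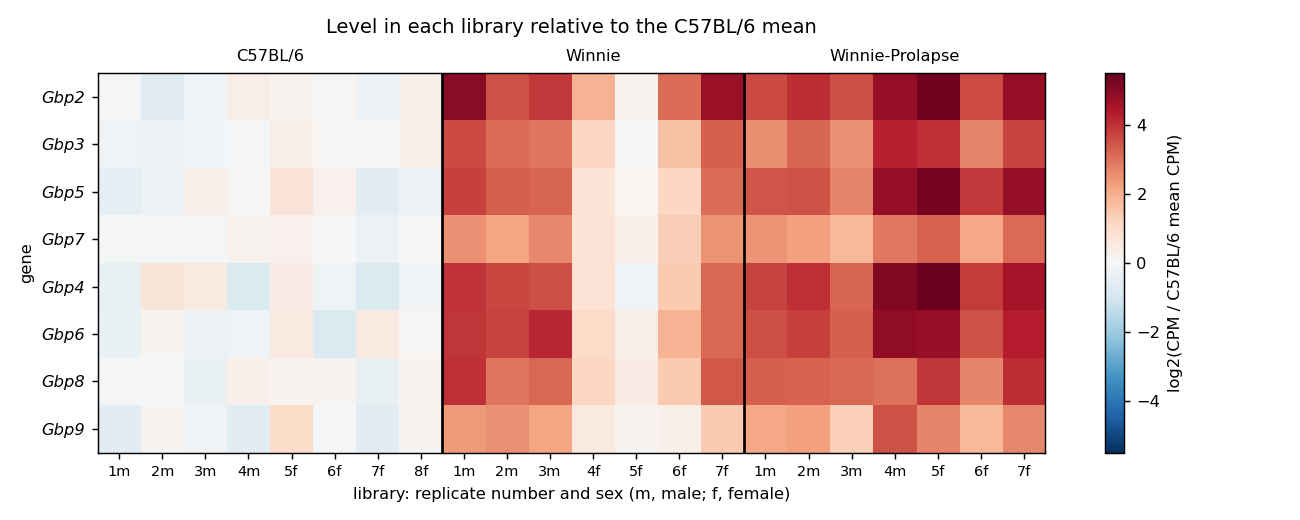
Level of 8 members in each of 22 libraries as the log2 ratio to the C57BL/6 mean CPM, with 1 column per library (replicate number and sex) and 1 line per member, red for higher and blue for lower. In the Winnie block, replicate 5 has the colour of the C57BL/6 libraries for each member (0.862 to 1.35 times their mean), and replicates 4 and 6 are paler than the others.

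Within the Winnie group, males had the higher mean of each of these 9 members, with or without Winnie replicate 5. Winnie males had 377 to 1052 CPM of Gbp2 (639 ± 362, SD, n = 3) and females 36.7 to 904 CPM (337 ± 391, SD, n = 4), so they overlapped, and without Winnie replicate 5 females had 437 ± 412 CPM (SD, n = 3). For Gbp9 males had 22.3 ± 2.63 CPM and females 7.17 ± 3.36 CPM, and for Gbp6 males had 13.6 ± 2.12 CPM and females 3.54 ± 3.01 CPM. All Winnie males stood above all Winnie females for 5 of 9 members (Gbp4, Gbp5, Gbp6, Gbp9 and Gbp10), a pattern that 14.5% of all genes had. Without Winnie replicate 5 the female means were 7.95 ± 3.64 CPM for Gbp9 and 4.33 ± 3.13 CPM for Gbp6. In a fit of the 22 libraries that adjusted for group, 0 of 9 tested members differed between females and males by edgeR (0 by DESeq2), and 0.0658% of all 18236 genes were called. At an unadjusted p under 0.05 there were 0 of 9 members, against 4.49% of all genes. The smallest adjusted p was 0.964.

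The sex by group interaction, a test added after the data were seen, asks whether the difference between groups differed between the sexes. Gbp10 is left out of the counts that follow, because it passed the filter against C57BL/6 through the libraries where it is high. In Winnie against C57BL/6 the difference was smaller in females for 8 of 8 members, by 0.88 (Gbp7) to 2.15 (Gbp6) on the log2 scale. By edgeR 0 of 8 passed an adjusted p under 0.05, where 0.247% of all genes did, and 3 of 8 had an unadjusted p under 0.05, where 18.2% of all genes did. The lowest was Gbp9, with a female minus male difference of -2.04 ± 0.50 (edgeR adjusted p = 0.0807). Without Winnie replicate 5 the differences were 0.60 (Gbp2) to 1.87 (Gbp9) smaller in females, with 0 of 8 past the adjusted limit (0.215% of all genes) and 2 of 8 at an unadjusted p under 0.05 (17.8% of all genes).

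In Winnie-Prolapse against Winnie, 0 of 8 passed (0% of all genes) and 6 of 8 had an unadjusted p under 0.05 (12.7% of all genes). There the difference between groups was larger in females for 8 of 8 members, by 1.498 to 2.65, and these comparisons share the Winnie libraries. Without Winnie replicate 5, 0 of 8 passed and 5 of 8 had an unadjusted p under 0.05 (10% of all genes). In Winnie-Prolapse against C57BL/6, 0 of 8 passed and 0 of 8 had an unadjusted p under 0.05 (4.4% of all genes). With males alone, 8 of 8 members were called in Winnie against C57BL/6, where 0.637% of all genes were called higher. With females alone 0 of 8 were, as were 0% of all genes, and 0 of 8 were higher at an adjusted p under 0.05 with 1.5-fold (0.00579% of all genes), while 7 of 8 members had an unadjusted p under 0.05 (19.2% of all genes).

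Between Winnie-Prolapse and Winnie mice, the members had higher means in Winnie-Prolapse, and none passed the limits. By edgeR 0 of 9 tested members were called (0.0% of all 17041 genes), also at an adjusted p under 0.05 with 1.5-fold, which 4.27% of all genes passed upward, and DESeq2 called 0 (2.29% of all genes). At an unadjusted p under 0.05 there were 4 of 9 members (Gbp4, Gbp5, Gbp9 and Gbp10), against 27.8% of all genes. Apart from Gbp10, the largest differences were those of Gbp5 at 1.59 ± 0.54 (edgeR adjusted p = 0.0769) and Gbp4 at 1.49 ± 0.55 (edgeR adjusted p = 0.0973). Gbp10 was at 1.57 ± 0.62 (edgeR adjusted p = 0.115), but it passed the filter mainly through the Winnie-Prolapse libraries where it is high, so its value adds no support. Gbp2 and Gbp8 had the smallest, at 0.58 ± 0.55 (edgeR adjusted p = 0.525) and 0.60 ± 0.45 (edgeR adjusted p = 0.417). Leaving out 1 library gave 0.37 to 0.91 for Gbp2 and 0.41 to 0.95 for Gbp8, with the highest value of both without Winnie replicate 1. The 2 groups overlapped for each of the 9 members (0.411% of all genes did not overlap with Winnie-Prolapse higher), and 4 of 7 Winnie-Prolapse libraries exceeded every Winnie library for Gbp4 and Gbp5, against 1 of 7 for Gbp2 and Gbp8. Without Winnie replicate 5 the differences ran from 0.37 (Gbp2) to 1.40 (Gbp5), and 0 of 9 passed an adjusted p under 0.05 with 1.5-fold (1.97% of all genes).

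The sexes gave different values in this comparison. With females alone the differences of the 8 members other than Gbp10 ran from 1.36 (Gbp2) to 2.99 (Gbp5) on the log2 scale. At an adjusted p under 0.05 with 1.5-fold, 4 of these 8 were higher, against 8.09% of all genes, and 0 were called at the limits of the study. These were Gbp4 at 2.88 (edgeR adjusted p = 0.0332), Gbp5 at 2.99 (edgeR adjusted p = 0.023), Gbp6 at 2.27 (edgeR adjusted p = 0.0387) and Gbp9 at 1.74 (edgeR adjusted p = 0.0132). Gbp10 passed the filter through the Winnie-Prolapse females, and its value is not given. With males alone 0 of 9 were higher at that limit (0% of all genes), the highest was Gbp4 at 0.40, and Gbp2, Gbp7 and Gbp8 were below 0, at -0.20, -0.056 and -0.27. The difference between the sexes is that of the interaction given above, which 0 of 8 members passed.

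Across the 22 libraries, the members closest to each other in pattern were Gbp4 and Gbp5, with a root mean square difference of 0.37 between their centred log2 CPM values, and Gbp3 and Gbp8, at 0.38. Each of these pairs joins a chromosome 5 gene with a chromosome 3 gene. Gbp2 and Gbp9 were the farthest apart, at 1.14. By the same measure the closest gene outside the family was Igtp for Gbp2 (0.35, with a spread of 2.13 for Gbp2 itself), Tap1 for Gbp3 (0.26) and Gbp8 (0.31), Cd274 for Gbp7 (0.27) and Fgr for Gbp9 (0.37). It was Socs1 for Gbp5 (0.49) and Gbp6 (0.43), Tgtp2 for Gbp4 (0.45) and Slfn10-ps for Gbp10 (0.49). Igtp and Tgtp2 encode immunity-related GTPases, Tap1 a peptide transporter of antigen presentation, Cd274 the ligand PD-L1, Socs1 an inhibitor of cytokine signalling and Fgr a Src family kinase of myeloid cells. Values are a description over 22 libraries of 3 groups, which share the differences between the groups.

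The interferon gamma pathway was counted from a list of 12 genes. In Winnie-Prolapse against C57BL/6, 7 of 12 tested genes were called higher and 0 lower (9.84% and 8.47% of all genes). The 7 include Ifng, which passed the filter through the Winnie-Prolapse libraries where it is high, so its call adds no support. In Winnie, where Ifng did not pass the filter, 0 of 11 were called. There 7 of 11 had an unadjusted p under 0.05 (39.9% of all genes) and 6 were higher at an adjusted p under 0.05 with 1.5-fold (7.42% of all genes). The median log2 fold changes of the tested genes were 1.06 in Winnie-Prolapse, with Ifng, and 0.88 in Winnie. Irf1 rose by 1.38 ± 0.13 in Winnie-Prolapse mice (edgeR adjusted p = 1.44e-06), while Irf8 and Stat2 rose by 1.15 ± 0.13 and 1.17 ± 0.13. The receptor genes Ifngr1 (-0.44 ± 0.14) and Ifngr2 (-0.20 ± 0.15) were not called. Ifng itself, named outside the rule, had 0 or 1 count in each C57BL/6 library, 1 to 63 counts in Winnie and 47 to 312 counts in Winnie-Prolapse libraries.

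The immunity-related GTPases, a family of smaller interferon-induced GTPases that act on the same vacuoles, were counted from a list of 12. Of 11 tested genes, 10 were called higher in Winnie-Prolapse against C57BL/6, against 9.84% of all genes (median log2 fold change 4.68), and 1, Iigp1, was called in Winnie, with 10 higher at an adjusted p under 0.05 and 1.5-fold, against 7.42% of all genes (median 3.68). Iigp1 rose by 5.13 ± 0.66 in Winnie (edgeR adjusted p = 0.000937) and by 6.13 ± 0.32 in Winnie-Prolapse mice. Irgm1, Irgm2 and Igtp rose by 3.05 ± 0.20, 3.02 ± 0.20 and 4.41 ± 0.23 in Winnie-Prolapse mice, and 9930111J21Rik2 was not called at 1.41 ± 0.37. Between Winnie-Prolapse and Winnie 0 of 11 were called, and 0 of 11 had an unadjusted p under 0.05, against 27.8% of all genes. Of the family genes outside the members, Gbp2b on chromosome 3 rose by 2.27 ± 0.27 in Winnie-Prolapse (edgeR adjusted p = 9.41e-06) and had a value of 2.60 ± 0.35 in Winnie (edgeR adjusted p = 0.00102). Of the group comparisons, Gbp11 passed the filter in that of the Winnie groups alone, at 0.72 ± 0.45 (edgeR adjusted p = 0.317).

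The genes on which guanylate-binding proteins act or depend were counted from 3 lists. In Winnie-Prolapse against C57BL/6, 9.84% of all genes were called higher and 8.47% lower, and 58.5% had an unadjusted p under 0.05, against 39.9% in Winnie. Of 10 inflammasome and pyroptosis genes, 2 were called higher and 1 lower in Winnie-Prolapse against C57BL/6, while 7 had an unadjusted p under 0.05. In Winnie 0 were called, 6 had an unadjusted p under 0.05 and 3 were higher at an adjusted p under 0.05 with 1.5-fold, against 7.42% of all genes. In Winnie-Prolapse mice the cytokine gene Il1b rose by 6.93 ± 0.60 and the sensor gene Nlrp3 by 5.09 ± 0.61, and the cytokine gene Il18 fell by 1.46 ± 0.24 on the log2 scale. Gsdmd, the pore-forming effector of pyroptosis, had 0.62 ± 0.16 (edgeR adjusted p = 0.00504), and the protease gene Casp1 0.04 ± 0.13, and neither was called. Of 11 genes listed for autophagy conjugation, 1 was called higher in Winnie-Prolapse mice. It was Rnf213 (1.93 ± 0.19), a ubiquitin ligase that is not itself part of that conjugation. There 2 were called lower (Map1lc3a, -0.69 ± 0.13, and Gabarapl1, -1.06 ± 0.14), and 9 had an unadjusted p under 0.05. In Winnie 0 of the list were called and 6 had an unadjusted p under 0.05. At an adjusted p under 0.05 with 1.5-fold 1 was higher, again Rnf213, against 7.42% of all genes. Map1lc3a was at -0.71 ± 0.14 (edgeR adjusted p = 0.00463) and Gabarapl1 at -0.70 ± 0.19 (edgeR adjusted p = 0.0164) in Winnie. Gabarap (0.07 ± 0.11) and Map1lc3b (-0.49 ± 0.09) were not called. Of 6 genes of prenylation enzymes, which attach the lipid anchor and process its end, 0 were called in each group comparison (4 had an unadjusted p under 0.05 in Winnie and 2 in Winnie-Prolapse against C57BL/6), with Zmpste24 at 0.53 ± 0.06 and Icmt at 0.10 ± 0.07 in Winnie-Prolapse against C57BL/6.

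The summed markers of immune cells also had higher means in Winnie-Prolapse than in C57BL/6 mice. Macrophage and monocyte markers summed to 82.1 to 210 CPM in C57BL/6, 155 to 335 in Winnie and 233 to 689 in Winnie-Prolapse libraries, and 7 of 8 were called higher in Winnie-Prolapse against C57BL/6, where 9.84% of all genes were. T and NK cell markers summed to 4.60 to 22.8, 15.3 to 41.4 and 22.6 to 55.0 CPM, and 6 of 7 tested were called. Neutrophil markers summed to 0.724 to 3.43, 1.87 to 130 and 68.7 to 1329 CPM, 5 of 5 tested were called, and no C57BL/6 library had over 3 counts of Retnlg or Cxcr2. Of the 6 neutrophil markers, 3 passed the filter in Winnie and 5 in Winnie-Prolapse against C57BL/6. Some thus passed only through the Winnie-Prolapse libraries where they are high, and the 5 of 5 is not a free count. B and plasma cell markers summed to 88.0 to 393, 347 to 1419 and 834 to 1662 CPM, with 2 of 5 called. In Winnie against C57BL/6, 0 genes of these lists were called. At an adjusted p under 0.05 with 1.5-fold, 5 of 8 macrophage and monocyte, 7 of 7 T and NK cell, 2 of 3 neutrophil and 2 of 5 B and plasma cell markers were higher, against 7.42% of all genes. At an unadjusted p under 0.05 there were 7, 7, 2 and 2, against 39.9% of all genes.

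Within the Winnie group, macrophage and monocyte markers were highest in replicate 1 (335 CPM) and lowest in replicate 5 (155 CPM). These libraries were the highest for 6 of 9 members and the lowest for 9 of 9. T and NK cell markers were at 41.4 CPM in replicates 1 and 2, their highest. Other libraries differed in order between members and markers. T and NK cell markers were at 15.3 CPM in Winnie replicate 3 and at 15.5 CPM in Winnie replicate 5, where Gbp2 was at 489 and 36.7 CPM. Winnie replicate 7 had 214 CPM of macrophage and monocyte markers and 904 CPM of Gbp2, and Winnie replicate 4 had 227 CPM and 127 CPM. Of markers of other cells, 5 of 5 smooth muscle markers were called lower in Winnie-Prolapse against C57BL/6, where 8.47% of all genes were. In Winnie against C57BL/6, 0 of 5 were called. Their log2 fold changes ran from -1.01 to -0.84 (median -0.91), with edgeR adjusted p-values of 0.00706 to 0.0403. Of 5 endothelial markers 1 was called higher, of 5 goblet cell markers 1 lower and of 8 colonocyte markers 2 lower in Winnie-Prolapse against C57BL/6, and the others were not called. The part of cell composition in the levels of the members was not tested.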

How the data were processed

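Poly(A) RNA of distal colon from 22 mice was sequenced by the authors in stranded, paired-end libraries with reads of 100 bases. The authors ran RNAsik 1.5.4 with STAR on GRCm38 and counted reads with featureCounts, and the deposited table holds raw counts for 46078 genes. The release of the annotation, the strand setting and the treatment of reads that match several genes are not given in the sources used here. Groups, sex and age came from the labels, and replicates were numbered in accession order, which pairs no mice. The study describes the C57BL/6 mice as littermates from the colony of the Winnie mice, and which mice shared a litter or cage is not given in the sources used here. The study's methods name fewer Winnie mice for RNA extraction than the 7 libraries labelled Winnie, all of which were used, and which library is additional is not given in the sources used here.

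The statistics were run in R 4.3.3 with edgeR 4.0.16 (quasi-likelihood F test, TMM, filterByExpr, Benjamini-Hochberg over all genes tested). A comparison used the libraries of its 2 groups alone, and females against males on 22 libraries with group as a covariate. Every SE of a log2 fold change was obtained from the fold change and its F value. CPM were counts scaled by the library total, and log2 CPM for patterns had a prior count of 2. Library pairs differed by a chi-square per degree of freedom of at least 28.83, so no library was a duplicate. Sequences and starts came from RefSeq (GRCm38.p6) and exons from GENCODE M21. The fit was tested on simulated data.

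The members and lists were chosen with earlier results of these data known. The genes named were all members, for each pathway list at most 4 called genes and 2 uncalled genes of highest mean CPM, and for each member the closest gene in pattern. A gene that the rule selects is not reported here. Of the 12 immunity-related GTPases listed, 11 were found in the table. Alternatives were library totals without TMM, DESeq2 1.42.0, limma-voom (limma 3.58.1), the bias-adjusted quasi-likelihood fit, no filter, a filter of 10 counts in each library, an adjustment for sex, a joint fit of the 3 groups, males alone, females alone, an adjusted p under 0.05, and leaving out each library. The sex by group interaction, and that interaction and the means of females without Winnie replicate 5, were added after seeing the data.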

Additional observations from a re-analysis of the deposited data

Results flagged for a closer look

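Of 26 sets of values (each member in each group of 4 to 10 libraries), 1 had a library apart from the rest by Dixon's test at 95%. Gbp9 in C57BL/6 replicate 5, a female, was at 8.83 CPM, while the other 7 C57BL/6 libraries ran from 2.86 to 4.87 CPM, and the gap made up 0.664 of the range. Chance gives about 1 such set in 20. Without this library the log2 fold change of Gbp9 was 1.91 in Winnie and 2.76 in Winnie-Prolapse against C57BL/6.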

How the results depend on the processing

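In Winnie against C57BL/6, where 0 members were called, DESeq2 called 9 with Gbp10 (3.66% of all genes were called higher), the bias-adjusted fit 1 (0.162%), the fit without a filter 5 (0.219%), all 3 groups in one fit 7 (0.979%), males alone 8 (0.637%) and an adjusted p under 0.05 8 (7.42%). Leaving out 1 library gave 0 to 7, with 3 without Winnie replicate 4 (0.149%) and 7 without Winnie replicate 5 (2.5%). The fold changes kept their direction in all these settings, and the cause of the changes in the count was not tested beyond the libraries left out. In Winnie-Prolapse against C57BL/6, 7 to 9 members were called (9 with Gbp10), and the comparison of the Winnie groups and that of the sexes gave 0 in every setting. With males alone, Winnie-Prolapse against Winnie turned to -0.20 for Gbp2, -0.056 for Gbp7 and -0.27 for Gbp8. For females against males, Gbp2 turned from 0.04 to -0.032 without TMM factors and -0.22 by limma-voom. Leaving out 1 library gave -0.21 to 0.27 for Gbp2, -0.30 to 0.029 for Gbp3, -0.25 to 0.073 for Gbp5, -0.19 to 0.042 for Gbp7 and -0.37 to 0.013 for Gbp8. Over single members and settings, 804 values kept their direction and side of the limit, 39 passed the limit where the reported value did not, 2 (Gbp9, 1 sex alone) missed it and 21 turned in direction, as given above. Low counts limit Gbp10, which passed the filter in some of these settings only. No paired analysis was possible because replicate numbers were given in accession order.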
